A study of Mus musculus with 12 samples.

Results

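The 10 genes described here carry fatty acids into cells, build them, store them as triglyceride and release them again: Cd36, Lpl, Plin2, Fasn, Scd1, Scd2, Acaca, Dgat1, Dgat2 and Pnpla2. They were listed by name for these roles, with earlier results of these data known but by a rule that uses no measured value, and all 10 of them were found among the 27179 genes of the deposited table. Whole-kidney RNA of mice was sequenced in 12 libraries, 3 in each of 4 groups, since both wild-type mice and γGT1-Cre;Fan1-/- mice (FAN1KO) were given either saline or cisplatin. All mice were 8 to 12 weeks old, with a strain background labelled Mixed, and cisplatin, a platinum drug that crosslinks DNA, was injected into the peritoneum at 2 mg/kg once a week for 5 weeks. FAN1 is a nuclease that repairs such crosslinks. The Cre recombinase was driven by the Ggt1 promoter, so the deletion was restricted to the proximal tubule, the wild-type mice are not labelled as carrying Cre, and every library still held all other cells of the kidney. Fan1 RNA was 1.17 to 3.51 TPM in the 6 FAN1KO libraries and 1.98 to 3.80 TPM in the 6 wild-type libraries, so in whole kidney it did not separate the genotypes.

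Proximal tubule cells cover most of their energy need by burning fatty acids. Lpl, the lipase of the capillary wall, frees fatty acids from circulating lipoproteins, and Cd36 is a membrane transporter that takes them up. Acaca (acetyl-CoA carboxylase) and Fasn (fatty acid synthase) make saturated fatty acids, into which the stearoyl-CoA desaturases Scd1 and Scd2 put a double bond. Dgat1 and Dgat2 catalyse the last step of triglyceride synthesis, Plin2 coats the lipid droplets in which triglyceride is kept, and Pnpla2 (ATGL) is the lipase that starts their breakdown. Whether neutral lipid accumulates in FAN1-deficient kidneys was one of the questions of the study. The measurements below are of RNA only. In the RefSeq annotation of GRCm38.p6, Plin2 spans chr4:86626910-86670217, Lpl chr8:68880555-68906932, Dgat1 chr15:76502012-76512021, Dgat2 chr7:99153663-99182713 and Pnpla2 chr7:141455188-141460743, and of these only Plin2 overlaps another annotated gene (Gm12551, not listed in the table).

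Values are TPM (transcript abundances scaled to the same total in each library), which are already divided by gene length, so levels can be compared between genes. One read per kilobase of gene came to between 0.0200 and 0.0479 TPM, depending on the library, and all 10 members lay above 2 TPM in every library. RNA of Y-linked genes was found in 1 library per group (replicate 3 of wild-type saline and of FAN1KO cisplatin, replicate 1 of FAN1KO saline and of wild-type cisplatin), and the other 8 libraries held almost none. The library wild-type saline 2 stood apart. Its 6 white adipocyte markers summed to 311 TPM against 0.224 to 79.1 TPM in the other 11 libraries, and it was the only library with adrenal cortex markers above trace level (Cyp21a1 at 58.2 TPM, Cyp11b1 at 25.4 TPM). The 9 proximal tubule markers were present in all libraries and summed to 3537 to 5751 TPM in wild-type cisplatin kidneys and to 1414 to 2769 TPM in FAN1KO cisplatin kidneys. In whole tissue, fewer cells of a type and less RNA per cell cannot be told apart.

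The order of the members changed with genotype and treatment. In wild-type saline kidneys, Lpl was the highest at 329 ± 10.6 TPM (SD, n = 3), followed by Scd1 at 269 ± 171 TPM, Dgat2 at 151 ± 16.6 TPM and Cd36 at 136 ± 172 TPM. The droplet coat gene Plin2 stood near the bottom of that order at 24.6 ± 9.29 TPM, beside Scd2 at 23.1 ± 8.13 TPM and Fasn at 19.4 ± 14.1 TPM, and these values did not differ beyond their spread. In FAN1KO cisplatin kidneys, Plin2 was the highest at 182 ± 29.5 TPM, above Pnpla2 at 104 ± 14.3 TPM and Dgat2 at 97.1 ± 20.0 TPM. Lpl had moved below them to 54.6 ± 3.68 TPM, where it did not differ beyond the spread from Cd36 at 51.4 ± 29.6 TPM and Dgat1 at 48.2 ± 5.06 TPM. Acaca was the lowest member in both groups, at 3.68 ± 2.18 and 3.51 ± 0.246 TPM.

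**Figure D1:**
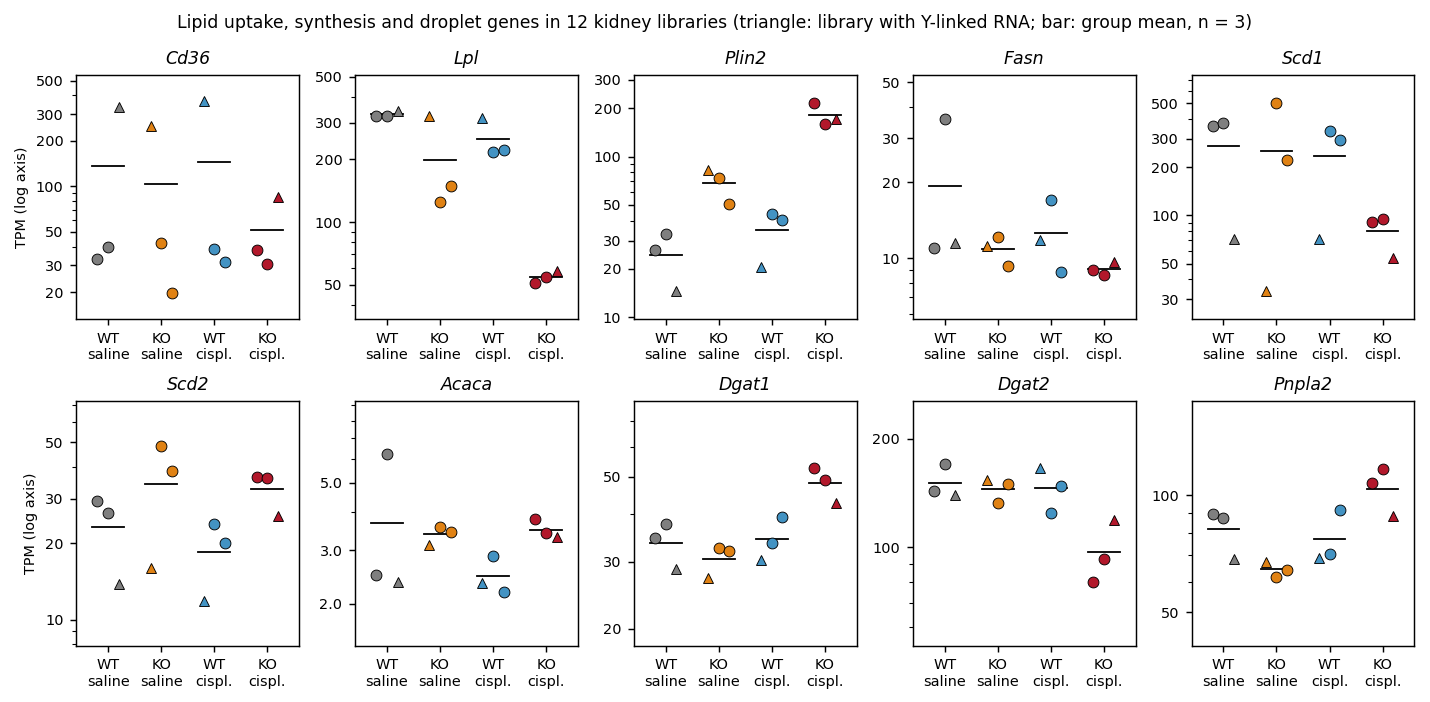
TPM (log axis) of the 10 members in the 12 libraries, by group (WT, wild-type; KO, FAN1KO; cispl., cisplatin), with 1 point per library, a bar at the mean of 3 and triangles for the 4 libraries with Y-linked RNA. Plin2 rose from 14.6 to 43.9 TPM across the wild-type libraries to 160 to 216 TPM in FAN1KO cisplatin kidneys, while Lpl there lay at 51.1 to 58.4 TPM, and the triangles are the highest Cd36 and the lowest Scd1 value of each group.

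The first comparison asked what the loss of FAN1 changed in cisplatin-treated kidneys. Of the 10 members, 4 passed the test (limma on log2(TPM + 1), Benjamini–Hochberg adjusted p under 0.05 over 14972 genes), with Plin2 and Dgat1 higher and Lpl and Dgat2 lower in FAN1KO. Of all genes tested, 23.9% passed, 19.6% as higher and 4.37% as lower. At an unadjusted p under 0.05 there were 5 members, the added one being Pnpla2. The 3 FAN1KO values did not overlap the 3 wild-type values for 6 members (Lpl, Plin2, Scd2, Acaca, Dgat1 and Dgat2), against 44.3% of all genes. The fold changes of all tested genes had a median of 0.24 on the log2 scale in this comparison, so small rises have to be read against that shift.

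Without cisplatin, 0 of 10 members passed between FAN1KO and wild-type kidneys by limma, with 3 at an unadjusted p under 0.05, against 0.768% of all genes (0.341% higher, 0.427% lower). Plin2 and Pnpla2 were the 2 members whose groups did not overlap, against 12.5% of genes. Cisplatin against saline in FAN1KO kidneys gave 5 of 10 members, Plin2, Dgat1 and Pnpla2 higher and Lpl and Dgat2 lower, against 39.8% of all genes (34.9% higher, 4.9% lower). These same 5 did not overlap, against 54.9% of genes, and the median of all genes was 0.37. In wild-type kidneys, cisplatin against saline gave 0 of 10 members, also 0 at an unadjusted p under 0.05, against 0.0601% of genes, and Lpl alone did not overlap, against 6.28% of genes. A test of whether the cisplatin effect differed between genotypes passed for 0 members (4 at an unadjusted p under 0.05) and for 6.24% of genes. The comparisons share groups, so their values are given side by side and not as separate evidence.

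**Figure D2:**
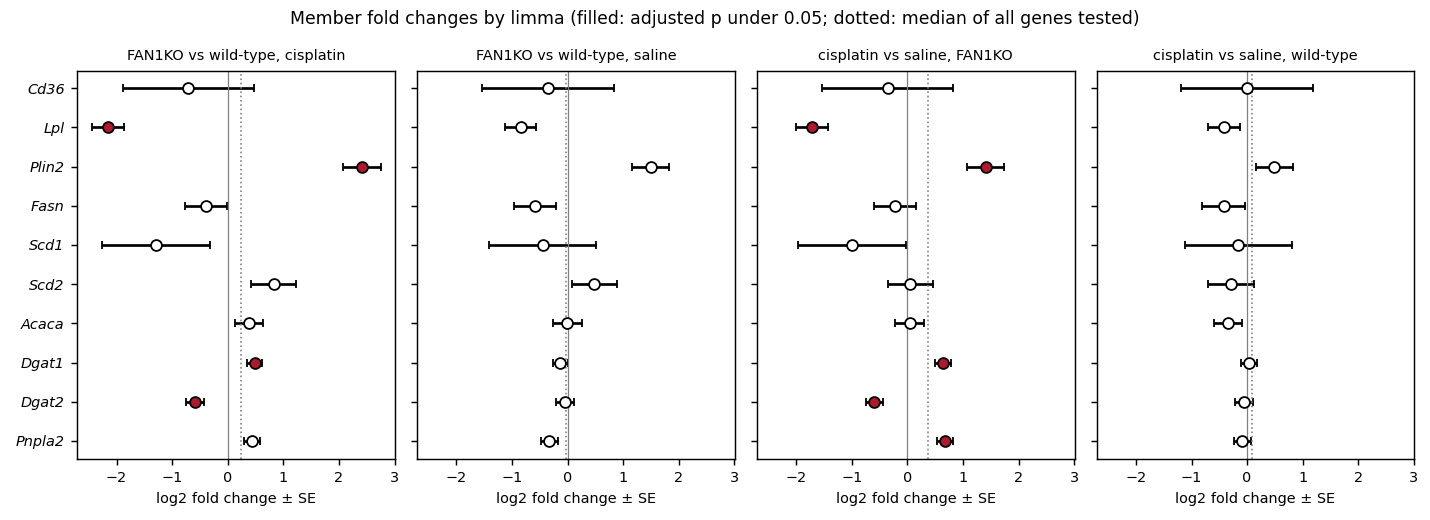
Log2 fold change on the log2(TPM + 1) scale with its standard error for the 10 members in 4 comparisons, filled where the adjusted p was under 0.05, with the median of all genes tested as a dotted line. Lpl and Plin2 lie at -2.16 and 2.41 between genotypes under cisplatin, and no member is filled in the comparison under saline or in wild-type kidneys.

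Lpl was measured at 321, 324 and 341 TPM in the wild-type saline libraries and at 323, 125 and 149 TPM in the FAN1KO saline libraries. After cisplatin it was at 315, 216 and 222 TPM in wild-type and at 51.1, 54.3 and 58.4 TPM in FAN1KO kidneys. The 3 FAN1KO cisplatin values were the lowest of all 12 and lay close together, while the FAN1KO saline values spanned the wild-type level and values below it. Between genotypes under cisplatin the log2 fold change was -2.16 (SE 0.29, adjusted p = 0.0011), and between treatments in FAN1KO it was -1.72 (SE 0.29, adjusted p = 0.00148). The saline difference of -0.85 (SE 0.29, adjusted p = 0.356) did not pass. Lpl was highest in the library with Y-linked RNA in 4 of 4 groups, and without the library FAN1KO saline 1, which is one of those, the saline difference was -1.26 with an adjusted p of 0.0112. Adipocytes express much Lpl. The white adipocyte markers summed to 1.78 to 79.1 TPM in wild-type cisplatin and 2.72 to 30.6 TPM in FAN1KO cisplatin kidneys. Of the 5 that were tested, 0 passed, against 23.9% of all genes. The library at 1.78 TPM, wild-type cisplatin 3, had 222 TPM of Lpl. With the white adipocyte sum as a covariate the genotype difference under cisplatin was -2.06 (SE 0.31, adjusted p = 0.00451), and beyond these values the part of adipocyte RNA in the Lpl result was not tested. Endothelial markers, of the cells on whose surface the enzyme acts, summed to 52.1 to 211 TPM in wild-type cisplatin and 27.4 to 92.3 TPM in FAN1KO cisplatin kidneys. Between genotypes under cisplatin 0 of these 7 markers passed, although their median log2 fold change was -1.06. Of all genes, 4.37% passed there as lower. With cisplatin in FAN1KO kidneys 1 of 7 fell (2 after median-ratio scaling), against 4.9% of all genes. The median of these markers was -1.17, from sums of 49.3 to 216 TPM under saline. Their part in the Lpl result was not tested.

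Cd36 varied more than any other member, and not by group. Its values were 33.3, 39.8 and 334 TPM in wild-type saline, 250, 42.2 and 19.8 TPM in FAN1KO saline, 366, 38.3 and 31.5 TPM in wild-type cisplatin, and 38.1, 30.7 and 85.4 TPM in FAN1KO cisplatin libraries. The 4 libraries with Y-linked RNA held 85.4 to 366 TPM and the other 8 held 19.8 to 42.2 TPM, so these sets did not overlap. Within the Y-linked set the FAN1KO cisplatin library was the lowest, but it is a single library. The genotype difference under cisplatin was -0.71 (SE 1.18, adjusted p = 0.692). In the 8 libraries without Y-linked RNA, fewer than 3 per group, it was -0.02 (SE 0.31, adjusted p = 0.964). A difference in Cd36 was not detectable with this spread.

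Fasn and Acaca, the enzymes of de novo synthesis, were low in this tissue. Fasn was at 11.0, 35.7 and 11.5 TPM in wild-type saline, 11.2, 12.1 and 9.29 TPM in FAN1KO saline, 11.9, 17.1 and 8.78 TPM in wild-type cisplatin, and 8.99, 8.58 and 9.66 TPM in FAN1KO cisplatin kidneys. One value stands out, that of the library wild-type saline 2 with the adipocyte and adrenal RNA. Acaca showed the same picture, with 2.49, 6.19 and 2.36 TPM in wild-type saline, 3.11, 3.59 and 3.44 TPM in FAN1KO saline, 2.34, 2.88 and 2.19 TPM in wild-type cisplatin, and 3.79, 3.42 and 3.32 TPM in FAN1KO cisplatin kidneys. Under cisplatin Acaca did not overlap between genotypes, but the difference of 0.38 (SE 0.26, adjusted p = 0.300) did not pass. Nor did that of Fasn at -0.39 (SE 0.38, adjusted p = 0.487). With the white adipocyte sum as a covariate, Fasn was at -0.05 (SE 0.28) under cisplatin. Under saline it was at 0.39 (SE 0.38), against -0.58 without the covariate. Acaca was at 0.54 and 0.45 with the covariate, and none of these passed. The part of adipocyte and adrenal RNA in these values was not tested. Acaca overlaps Tada2a and Gm11437 in the annotation, and as no use of strand is stated, reads of overlapping genes cannot be told apart.

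**Figure D3:**
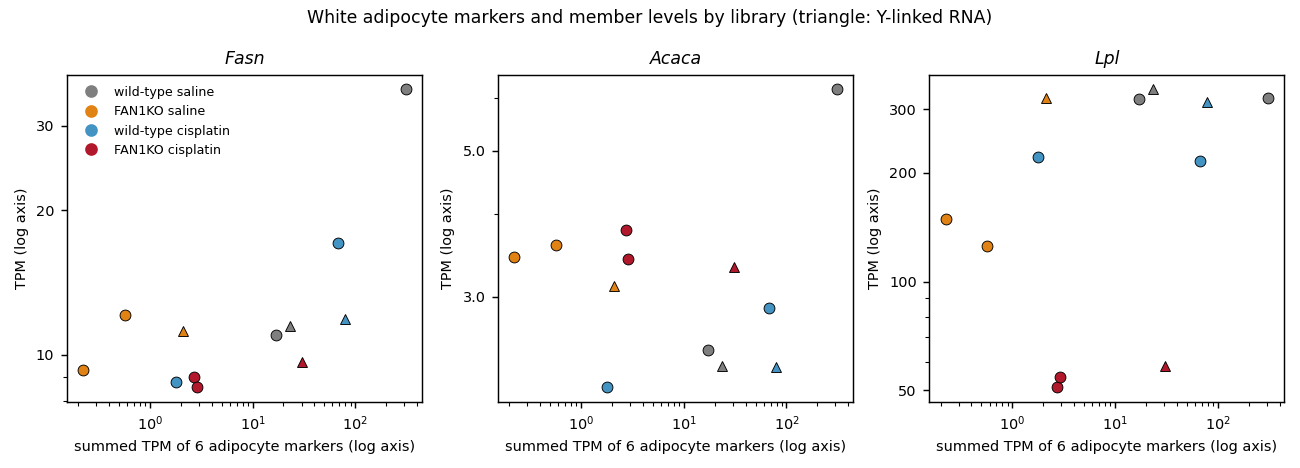
TPM of Fasn, Acaca and Lpl (log axis) against the summed TPM of 6 white adipocyte markers (log axis), with 1 point per library coloured by group and triangles for libraries with Y-linked RNA. The library at 311 TPM of adipocyte markers has the highest Fasn and Acaca (35.7 and 6.19 TPM), whereas Lpl in FAN1KO cisplatin kidneys stays at 51.1 to 58.4 TPM over marker sums of 2.72 to 30.6 TPM.

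The desaturases Scd1 and Scd2 are neighbouring paralogs on chromosome 19 (GRCm38), 87.59 kb apart, and how reads shared between them were assigned is not given in the sources used here. Scd1 was at 360, 376 and 71.7 TPM in wild-type saline, 33.8, 503 and 220 TPM in FAN1KO saline, 71.4, 335 and 294 TPM in wild-type cisplatin, and 90.5, 95.5 and 54.0 TPM in FAN1KO cisplatin kidneys. The library with Y-linked RNA was the lowest of its group in 4 of 4 groups, with 33.8 to 71.7 TPM against 90.5 to 503 TPM in the other 8, and this split made the spread within groups wide. Scd2 was at 29.2, 26.2 and 13.9 TPM in wild-type saline, 16.0, 48.5 and 38.5 TPM in FAN1KO saline, 11.8, 23.8 and 20.0 TPM in wild-type cisplatin, and 36.6, 36.0 and 25.6 TPM in FAN1KO cisplatin kidneys. Its Y-linked library was also the lowest in 4 of 4 groups. Neither gene passed between genotypes under cisplatin, with -1.29 (SE 0.97, adjusted p = 0.353) for Scd1 and 0.82 (SE 0.41, adjusted p = 0.166) for Scd2.

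With the mean level of 4 Y-linked genes as a covariate, both desaturases passed in that comparison and in opposite directions, Scd1 at -1.23 (SE 0.45, adjusted p = 0.0434) and Scd2 at 0.85 (SE 0.17, adjusted p = 0.00268). A fit of the 8 libraries without Y-linked RNA alone was an alternative chosen after the data were seen, and it leaves fewer than 3 libraries per group. In it Scd1 was at -1.74 (SE 0.32, adjusted p = 0.00727) and Scd2 at 0.71 (SE 0.14, adjusted p = 0.00829), and 36.2% of genes passed. The covariate fit gave 7 of 10 members between genotypes under cisplatin against 48.9% of all genes, 1 member (Plin2) under saline against 2.81%, 5 for cisplatin in FAN1KO against 61.1%, 0 for cisplatin in wild-type against 0.387%, and 3 for the difference between the cisplatin effects (Lpl, Dgat1 and Pnpla2) against 31.6%. The added calls under cisplatin were Scd1, Scd2 and Pnpla2.

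**Figure D4:**
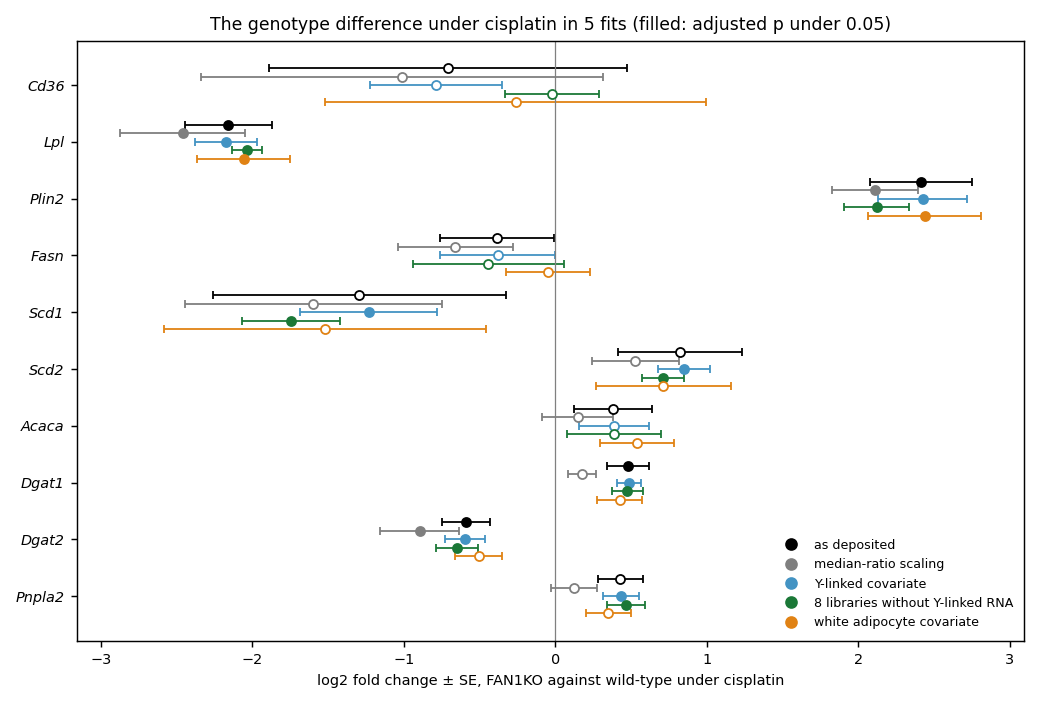
Log2 fold change with its standard error between FAN1KO and wild-type kidneys under cisplatin for the 10 members in 5 fits, filled where the adjusted p was under 0.05. All 10 members keep their direction in all 5 fits, and Lpl and Plin2 are filled in each. Dgat2 is not filled with the white adipocyte covariate. Scd1 and Scd2 are filled in the fit with the Y-linked covariate and in that of 8 libraries. Median-ratio scaling moves Dgat1 from 0.48 to 0.18.

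Plin2 was the member with the largest rise. It was measured at 26.2, 32.9 and 14.6 TPM in wild-type saline, 82.4, 73.8 and 50.3 TPM in FAN1KO saline, 20.5, 43.9 and 40.1 TPM in wild-type cisplatin, and 216, 160 and 171 TPM in FAN1KO cisplatin kidneys. All 6 FAN1KO values lay above all 6 wild-type values, and within FAN1KO the values after cisplatin lay above those after saline. Under cisplatin the FAN1KO mean was 5.23 times the wild-type mean. The log2 fold change between genotypes was 2.41 under cisplatin (SE 0.34, adjusted p = 0.00133) and 1.49 under saline (SE 0.34, adjusted p = 0.0943), and only the first passed. Cisplatin raised Plin2 in FAN1KO kidneys by 1.41 (SE 0.34, adjusted p = 0.00825), while the value in wild-type kidneys was 0.49 (SE 0.34, adjusted p = 1). The difference of 0.92 between these treatment effects (SE 0.47, adjusted p = 0.256) did not pass. The saline difference had an adjusted p of 0.0257 with the Y-linked covariate and of 0.0348 after median-ratio scaling, so its call depends on the fit. Macrophages also make Plin2. The 7 macrophage markers summed to 50.4 to 148 TPM in wild-type cisplatin and 141 to 422 TPM in FAN1KO cisplatin kidneys. Of these markers 1 passed as higher (0 after median-ratio scaling), against 19.6% of all genes, so this count is not above the background share. Their median log2 fold change was 1.39, against 0.24 for all genes. With cisplatin in FAN1KO kidneys, 4 of 7 rose (3 after median-ratio scaling), against 34.9% of all genes. Their median there was 1.96, against 0.37 for all genes, from sums of 37.3 to 111 TPM under saline. Between genotypes under saline 0 of 7 passed, against 0.768% of all genes. The part of macrophage RNA in the Plin2 results was not tested.

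Pnpla2, the lipase acting on the same droplets, was at 89.3, 87.3 and 68.5 TPM in wild-type saline, 67.3, 61.6 and 64.4 TPM in FAN1KO saline, 68.8, 70.8 and 91.7 TPM in wild-type cisplatin, and 107, 116 and 88.3 TPM in FAN1KO cisplatin kidneys. It was thus below wild-type in all 3 FAN1KO libraries without cisplatin and reached its 2 highest values in FAN1KO with cisplatin. The rise with cisplatin in FAN1KO was 0.67 (SE 0.15, adjusted p = 0.00564), against -0.08 (SE 0.15, adjusted p = 1) in wild-type kidneys. Between genotypes it was 0.43 under cisplatin (SE 0.15, adjusted p = 0.0575) and -0.33 under saline (SE 0.15, adjusted p = 0.590). After median-ratio scaling the rise in FAN1KO was 0.21 (adjusted p = 0.317) and no longer passed.

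Plin2 and Pnpla2 both rose with cisplatin in FAN1KO kidneys, and the sequence before the start of each gene is shown so that the 2 can be compared. It is RefSeq sequence of GRCm38.p6, limited to the bases outside the annotated gene, and reads 5′ to 3′ on the gene's strand. That of Plin2 is chr4:86670218-86670309 on the minus strand, 92 bases, and that of Pnpla2 is chr7:141454938-141455187 on the plus strand, 250 bases. Capitals mark matches on either strand to any of 5 motifs. They were the CCAAT box, spelled by its name, the E-box with the letters CACGTG, the GC box with the letters GGGCGG, a site bound by nuclear receptors with the letters AGGTCA, and the core of a sterol element with the letters TCACNCCAC. Overlapping matches were all marked.
Plin2: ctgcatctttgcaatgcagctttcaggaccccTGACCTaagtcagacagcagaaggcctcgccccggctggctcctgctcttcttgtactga
Pnpla2: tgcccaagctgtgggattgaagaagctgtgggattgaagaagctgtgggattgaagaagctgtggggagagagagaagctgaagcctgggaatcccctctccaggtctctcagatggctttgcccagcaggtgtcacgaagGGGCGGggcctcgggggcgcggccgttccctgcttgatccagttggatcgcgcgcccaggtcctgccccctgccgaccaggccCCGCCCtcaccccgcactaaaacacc
The Plin2 stretch holds 1 AGGTCA match, on the reverse strand, as do 5.318% of stretches of this length and place among 32851 RefSeq promoters. The Pnpla2 stretch holds 2 GC boxes, 1 on each strand, and 32.74% of promoters hold at least 1 in 250 bases. The marked motifs of the stretches differ, and a match is a description of letters only.

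Dgat1 and Dgat2 do the same reaction with unrelated proteins, and they moved in opposite directions. Dgat1 was at 34.5, 37.6 and 28.7 TPM in wild-type saline, 27.1, 32.6 and 31.9 TPM in FAN1KO saline, 30.2, 33.5 and 39.3 TPM in wild-type cisplatin, and 52.7, 49.2 and 42.7 TPM in FAN1KO cisplatin kidneys. Dgat2, on the other hand, was at 143, 170 and 140 TPM in wild-type saline, 154, 133 and 150 TPM in FAN1KO saline, 166, 124 and 148 TPM in wild-type cisplatin, and 79.8, 92.5 and 119 TPM in FAN1KO cisplatin kidneys. For both genes the FAN1KO cisplatin values did not overlap those of any other group. Between genotypes under cisplatin, Dgat1 rose by 0.48 (SE 0.14, adjusted p = 0.0319) and Dgat2 fell by 0.59 (SE 0.16, adjusted p = 0.0224). With cisplatin in FAN1KO kidneys the values of Dgat1 and Dgat2 were 0.64 (SE 0.14, adjusted p = 0.00535) and -0.60 (SE 0.16, adjusted p = 0.0131).

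The Dgat1 difference between genotypes has to be set beside the median of all genes of 0.24. It was 0.18 (adjusted p = 0.213) after median-ratio scaling, and that with cisplatin in FAN1KO was 0.19 (adjusted p = 0.154). Dgat2 was at -0.89 (adjusted p = 0.0426) and -1.06 (adjusted p = 0.0141) after the same scaling. The genotype call of Dgat1 was lost without any one of wild-type cisplatin 1 or 2 or FAN1KO cisplatin 1 or 2 (highest adjusted p 0.130), and that of Dgat2 without wild-type cisplatin 1 or 3 or FAN1KO cisplatin 1 or 2 (highest adjusted p 0.101). Of 9 proximal tubule markers, 5 fell between genotypes under cisplatin (4 after median-ratio scaling), against 4.37% of all genes. With cisplatin in FAN1KO kidneys 5 fell, against 4.9% of all genes. The part of these markers in the Dgat2 and Lpl results was not tested.

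Ratios within a library do not depend on the total to which TPM are scaled. The ratio of Dgat2 to Dgat1 was 4.14, 4.52 and 4.87 in wild-type saline, 5.66, 4.09 and 4.70 in FAN1KO saline, 5.48, 3.70 and 3.76 in wild-type cisplatin, and 1.51, 1.88 and 2.79 in FAN1KO cisplatin kidneys.
The FAN1KO cisplatin ratios lay below those of every other group. The log2 difference from wild-type cisplatin was -1.09 (exact permutation test, two-sided, p = 0.1, the smallest that 3 against 3 can give). That from FAN1KO saline was -1.26 (same p). Each gene alone already separated in these comparisons, in opposite directions, so the separation of the ratio follows from those values and is not added evidence. Scd1 to Scd2 was 12.3, 14.4 and 5.17 in wild-type saline, 2.11, 10.4 and 5.72 in FAN1KO saline, 6.03, 14.1 and 14.7 in wild-type cisplatin, and 2.47, 2.65 and 2.11 in FAN1KO cisplatin kidneys. Here the FAN1KO cisplatin values did not overlap the wild-type cisplatin values, with a log2 difference of -2.17 (exact permutation p = 0.1), but they met the value of the FAN1KO saline library with Y-linked RNA. The ratio of the coat Plin2 to the lipase Pnpla2 was 0.293, 0.377 and 0.213 in wild-type saline, 1.22, 1.20 and 0.782 in FAN1KO saline, 0.298, 0.621 and 0.437 in wild-type cisplatin, and 2.01, 1.38 and 1.94 in FAN1KO cisplatin kidneys. It did not overlap between genotypes under either treatment, with log2 differences of 1.87 under saline and 2.02 under cisplatin. Nor did it overlap between treatments in FAN1KO, with 0.74 (exact permutation p = 0.1 for all 3 comparisons). Under saline each of these genes alone already separated, in opposite directions, so there too the ratio is not added evidence.

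**Figure D5:**
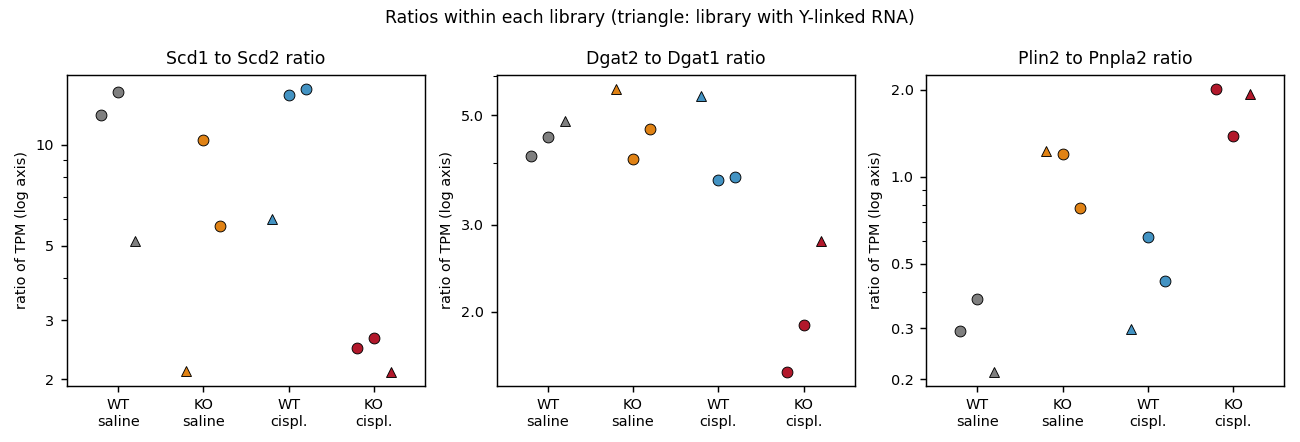
Ratio of TPM within each library (log axis) for 3 pairs of members, by group, with triangles for libraries with Y-linked RNA. FAN1KO cisplatin libraries have the lowest Dgat2 to Dgat1 ratios (1.51 to 2.79) and the highest Plin2 to Pnpla2 ratios (1.38 to 2.01), and the wild-type groups have Plin2 to Pnpla2 ratios of 0.213 to 0.621.

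Other genes of these pathways were followed in 7 lists, counted in the comparison of genotypes under cisplatin. There the background was the 23.9% of all genes given above (19.6% higher, 4.37% lower). For counts after median-ratio scaling it was 16.38% of 14848 genes, with 1277 higher and 1155 lower. The 9 proximal tubule markers had a median of -1.17 in this comparison before that scaling, and 5 of them fell. Their part in the falls of the list genes below was not tested. Of 17 tested genes of fatty acid synthesis and desaturation, 4 fell and 0 rose, with a list median of -0.25 against 0.24 for all genes. Fads2, the delta-6 desaturase of polyunsaturated fatty acids, fell from 140 ± 3.46 to 82.4 ± 5.68 TPM (SD, n = 3 each; log2 fold change -0.76, adjusted p = 0.000592). Acss2, which makes acetyl-CoA from acetate, was at -0.92 (adjusted p = 0.0362) and Oxsm, of mitochondrial fatty acid synthesis, at -0.59 (adjusted p = 0.0102). After median-ratio scaling, 6 of the 17 fell, and Acss2 was no longer among them (-1.22, adjusted p = 0.0683). Among 18 genes of uptake and trafficking, 1 fell, the very long-chain acyl-CoA synthetase and transporter Slc27a2 at -0.75 (adjusted p = 0.0450), from 2133 ± 417 to 1278 ± 352 TPM, and 0 rose. The median of that list was 0.15. After median-ratio scaling Slc27a2 no longer passed (-1.06, adjusted p = 0.0715). The fatty acid binding proteins Fabp4 (-1.89, adjusted p = 0.0332) and Fabp5 (-0.67, adjusted p = 0.0486) passed only then, and both are named here after their values were seen. White adipocyte markers summed to 1.78 to 79.1 TPM in wild-type cisplatin and 2.72 to 30.6 TPM in FAN1KO cisplatin kidneys. The part of adipocyte and endothelial RNA in the Fabp4 and Fabp5 results was not tested.

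Upstream of Dgat1 and Dgat2, 2 of 19 genes of triglyceride assembly fell and 3 rose, with a median of -0.03. The genes that fell supply glycerol 3-phosphate, namely Gk (glycerol kinase, -0.97, adjusted p = 0.00464) and Gpd1 (glycerol 3-phosphate dehydrogenase, -0.69, adjusted p = 0.00143). Gpd1 went from 364 ± 21.3 to 225 ± 13.7 TPM (SD, n = 3 each). The acyltransferases Agpat2 (0.59, adjusted p = 0.00840) and Agpat5 (0.57, adjusted p = 0.0246) and the phosphatidate phosphatase Lpin2 (0.55, adjusted p = 0.0468) rose, but none of these 3 rises passed after median-ratio scaling (adjusted p = 0.401, 0.121 and 0.231), when 3 genes of the list fell and 0 rose.

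Beside Plin2, 13 genes of the droplet coat and droplet growth were tested, 2 of which fell and 0 rose, with a median of -0.15. Fitm1, which helps form droplets at the endoplasmic reticulum, fell from 71.7 ± 10.4 to 36.9 ± 3.68 TPM (-0.94, adjusted p = 0.00151), and Cideb, a droplet and lipoprotein protein, from 81.3 ± 12.2 to 42.1 ± 6.98 TPM (-0.94, adjusted p = 0.00517; SD, n = 3 each). The list shares Plin1, Cidec and Cidea with the adipocyte markers. Beside Pnpla2, 2 of 10 lipolysis genes fell and 1 rose, with a median of -0.11. Mgll, which splits monoglycerides in the last step of lipolysis, was at -1.08 (adjusted p = 0.0190) and the carboxylesterase Ces1d at -0.97 (adjusted p = 0.0256). The gene that rose was Lpcat2 (1.15, adjusted p = 0.0235), a lysophospholipid acyltransferase and not a lipase. It was at 0.158 to 1.05 TPM in wild-type cisplatin and 1.32 to 4.22 TPM in FAN1KO cisplatin kidneys. Lpcat2 met the filter of at least 1 TPM in at least 3 libraries only through the FAN1KO cisplatin group. Its call is therefore no support for a change in lipolysis.

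Among 17 regulators of lipid synthesis, 2 fell and 3 rose, with a median of 0.06. Mlxipl (ChREBP, the carbohydrate-responsive factor of lipid synthesis) was at -0.68 (adjusted p = 0.0200) and Nr1h3 (LXR-alpha, a sterol-sensing receptor) at -0.55 (adjusted p = 0.0122). Mid1ip1, which activates acetyl-CoA carboxylase, rose from 34.3 ± 5.96 to 71.8 ± 9.90 TPM (SD, n = 3 each; 1.05, adjusted p = 0.00274). Usf1 (0.59, adjusted p = 0.0281) and Nr1h2 (0.34, adjusted p = 0.0308) rose too, but after median-ratio scaling they were at 0.28 and 0.03 and did not pass (adjusted p = 0.0525 and 0.909), when 3 regulators fell and 1 rose. Of 18 genes of cholesterol synthesis, 1 fell, the lanosterol demethylase Cyp51 at -1.06 (adjusted p = 0.0138), and 0 rose, with a median of -0.06 (2 fell after median-ratio scaling). Under saline 1 of the 18 cholesterol genes passed, the squalene epoxidase Sqle at -0.97 (adjusted p = 0.00480), and no gene of the other lists. Of all genes, 0.768% passed under saline, so 1 call over all 7 lists is not read as a result about them.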

How the data were processed

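Whole-kidney RNA of 12 libraries in 4 groups was sequenced with paired 150-base reads; groups and replicate numbers came from the sample labels. The authors deposited TPM for 27179 genes by NCBI Gene number, with 1 column per library and 0 columns left unused. The submitters' processing notes name mm10 and limma; aligner, counting program, annotation and use of strand are not given in the sources used here. Symbols, positions and promoters came from RefSeq of GRCm38.p6 (promoter windows for 5 of 10 members; 1904 identifiers stayed unnamed).

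Genes with at least 1 TPM in at least 3 libraries (14972) were tested on log2(TPM + 1), which understates changes of low genes, with limma 3.58.1 in R 4.3.3: 4 group means over 12 libraries, empirical Bayes moderation with a trend, Benjamini–Hochberg adjustment, threshold 0.05. Ratios within a library were compared by exact two-sided permutation tests, whose smallest p is 0.1 with 3 against 3. TPM keep no depth. Steps in the values of small RNA genes gave the worth of a read (98.9% to 100% of low values whole within 0.01), and no interval was derived from them. P-values measure the spread between the libraries of a group, which the labels do not tie to named animals. In simulated data with 200 genes changed 2-fold between genotypes under cisplatin, the test recovered 107, with 5 false calls among 14605 genes. The simulation gave every gene the same spread setting and the same assumed length, and held no Y-linked or adipocyte differences between libraries. Its figures therefore do not give the recovery or the false calls in the measured data.

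The members and gene lists were chosen with earlier results of these data known. All members are named; from each pathway list the 3 largest rises and falls that passed under cisplatin are named, and up to 2 each way under saline. Alternatives changed the pseudocount, filter, scaling, trend, libraries and covariates.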

Additional observations from a re-analysis of the deposited data

Results flagged for a closer look

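With the mean level of 4 Y-linked genes as a covariate, the cisplatin effect differed between genotypes by the interaction test of limma for 3 of 10 members. In the same fit 31.6% of all genes passed, so this count is near the background share. The effect in FAN1KO minus that in wild-type was -1.32 for Lpl (SE 0.29, adjusted p = 0.00826), 0.61 for Dgat1 (SE 0.11, adjusted p = 0.00356) and 0.76 for Pnpla2 (SE 0.17, adjusted p = 0.00845). Without the covariate the same differences were -1.31, 0.61 and 0.76, with adjusted p of 0.0774, 0.0877 and 0.0569, so the values stayed alike and the threshold was passed with the covariate but not without it. In the 8 libraries without Y-linked RNA, chosen after the data were seen, they were -0.80, 0.63 and 0.95 with adjusted p of 0.0159, 0.0320 and 0.0185. That fit has fewer than 3 libraries per group, and 15.9% of all genes passed in it.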

How the results depend on the processing

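Of 1040 recomputed member fold changes, 997 kept direction and side of the threshold, 17 lost and 26 gained a call, and 0 that were called under either setting reversed; 56, in 18 member results, changed sign without a call in either. All 84 recomputed ratios moved by less than the spread between libraries. Counts of members are followed by the share of all genes passing in the same fit. Between genotypes under cisplatin, 2 members passed with only the 6 libraries of that comparison (15.4%), 7 with the Y-linked covariate (48.9%), 7 in the 8 libraries without Y-linked RNA (36.2%) and 2 with the white adipocyte covariate (13.6%; Dgat1 at 0.0857 and Dgat2 at 0.0605 did not), the last 2 alternatives having been added after the data were seen. Under saline, 1 passed after median-ratio scaling (0.963%), with the Y-linked covariate (2.81%) or in the 8 libraries (2.00%; there Lpl, adjusted p = 0.00229). With cisplatin in FAN1KO, 3 passed after median-ratio scaling (28.3%) and 6 in the 8 libraries (52.5%), Scd1 being added at -1.83 (adjusted p = 0.00322). The interaction gave 3 with the Y-linked covariate (31.6%) and in the 8 libraries (15.9%), and 1 (Pnpla2) with the white adipocyte covariate (6.08%).

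Leaving out 1 library at a time gave 2 to 5 members between genotypes under cisplatin (9.1% to 25.6% of all genes) and 0 to 1 under saline (0.288% to 0.864%). It gave 4 to 5 with cisplatin in FAN1KO (23.1% to 42.8%) and 0 to 1 for the interaction (1.12% to 6.99%). With cisplatin in FAN1KO, Dgat2 was lost without FAN1KO cisplatin 1 (adjusted p = 0.0612). Under saline, Plin2 passed without wild-type cisplatin 1 (adjusted p = 0.0398). Between genotypes under cisplatin, Pnpla2 passed without wild-type saline 3, wild-type cisplatin 3 or FAN1KO cisplatin 3 (lowest adjusted p 0.0289), as it did in the interaction (0.0389), where Lpl also passed without FAN1KO saline 2 (0.0473). The causes were not tested.

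With a replicate block, 3 members passed between genotypes under cisplatin (19.7% of all genes), where Dgat1 at 0.0525 did not, and 0 under saline (0.407%). There were 5 with cisplatin in FAN1KO (36.5%), 0 in wild-type (0%) and 0 for the interaction (2.83%). The replicate numbers share only a number: 10 of 18 same-numbered pairs correlated above 0.1, with a mean of 0.018 against 0.015 for different numbers. TPM keep no read counts, so the counting error of low members such as Acaca was not analysed here.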
